A study of Rattus norvegicus with 12 samples.

Results

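The genes described here are 8 receptors of itch-sensing and non-peptidergic pain-sensing neurons of the dorsal root ganglion, measured by RNA sequencing of rat ganglia. They are Mrgprd, Lpar3, Lpar5, Il31ra, Osmr, Cysltr2, Htr1f and Hrh1, taken by symbol from the 20152 genes listed in the 12 libraries. Of these libraries, 4 came from rats dosed intraperitoneally with paclitaxel (2.0 mg/kg), which binds and stabilises microtubules, 4 from rats dosed the same way with oxaliplatin (2.4 mg/kg), which damages DNA, and 4 from rats labelled as given vehicle. Both drugs are cancer medicines and were used here to bring about neuropathic pain, and the groups allow each drug to be set against vehicle and the drugs against each other. The solvents were unlike, DMSO with saline for paclitaxel and a glucose solution for oxaliplatin, and the only control was the single vehicle group. The labels give no strain, sex, age or time of sampling, and leave unsaid if each replicate was its own animal. The p-values therefore reflect the spread among these libraries, part of which may be technical.

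The ganglion holds the cell bodies of sensory neurons, and those that sense itch and pain are small, unmyelinated neurons of several classes. Non-peptidergic nociceptors carry MRGPRD, a G protein-coupled receptor for beta-alanine, and in mice they also carry the lysophosphatidic acid receptors LPAR3 and LPAR5. A smaller class, known in mice by the peptides somatostatin and NPPB, carries the receptor of interleukin-31, an itch cytokine made by T cells. That receptor pairs IL31RA, the subunit that binds interleukin-31, with OSMR, a subunit that also serves oncostatin M. In mice the same neurons carry the cysteinyl leukotriene receptor CYSLTR2 and the serotonin receptor HTR1F. HRH1 is the histamine receptor blocked by classical antihistamines.

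On the FPKM scale, which divides by transcript length and so allows levels of different genes to be compared, Il31ra and Mrgprd were the most abundant of the 8. Il31ra averaged 26.0 ± 1.26 FPKM in paclitaxel ganglia, 18.4 ± 4.42 FPKM in oxaliplatin ganglia and 23.9 ± 1.41 FPKM in vehicle ganglia (SD, n = 4 each). Mrgprd averaged 18.9 ± 2.54, 17.8 ± 2.54 and 21.8 ± 1.12 FPKM in paclitaxel, oxaliplatin and vehicle ganglia. In vehicle ganglia the order then ran through Cysltr2 (9.68 ± 2.11 FPKM), Lpar3 (8.22 ± 1.03 FPKM), Lpar5 (5.85 ± 0.638 FPKM), Osmr (4.51 ± 0.581 FPKM) and Hrh1 (2.64 ± 0.0826 FPKM) to Htr1f (0.14 ± 0.07 FPKM). Neighbours in that order whose vehicle libraries overlapped were Il31ra and Mrgprd, and Cysltr2 and Lpar3. Every other pair of neighbours was separated in all 4 vehicle libraries. Paclitaxel ganglia had the same order except that Lpar3, at 8.63 ± 2.48 FPKM, averaged above Cysltr2, at 8.44 ± 1.60 FPKM, with overlapping libraries, and there Lpar5 overlapped Lpar3 and Osmr while Il31ra and Mrgprd did not overlap. Oxaliplatin ganglia kept the vehicle order, with overlap between neighbours everywhere except above Cysltr2 and on either side of Hrh1.

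Htr1f was close to undetected. It had estimated counts of 2, 0, 3 and 7 in the paclitaxel libraries, 4, 4, 3 and 6 in the oxaliplatin libraries and 2, 3, 3 and 6 in the vehicle libraries. At this depth no difference between groups was detectable, and the filter on low counts set it aside, so 7 of the 8 receptors were tested. Il31ra and Mrgprd had estimated counts that were fractional in 12 of 12 libraries. The cause was not tested, and how reads matching several genes were counted is not given in the sources used here, so their values are taken as uncertain. In each library 30.3% to 31.5% of the listed genes had such fractional counts. Lpar3, Lpar5, Cysltr2, Htr1f and Hrh1 had whole counts throughout, and Osmr in all libraries but 1.

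**Figure D1:**
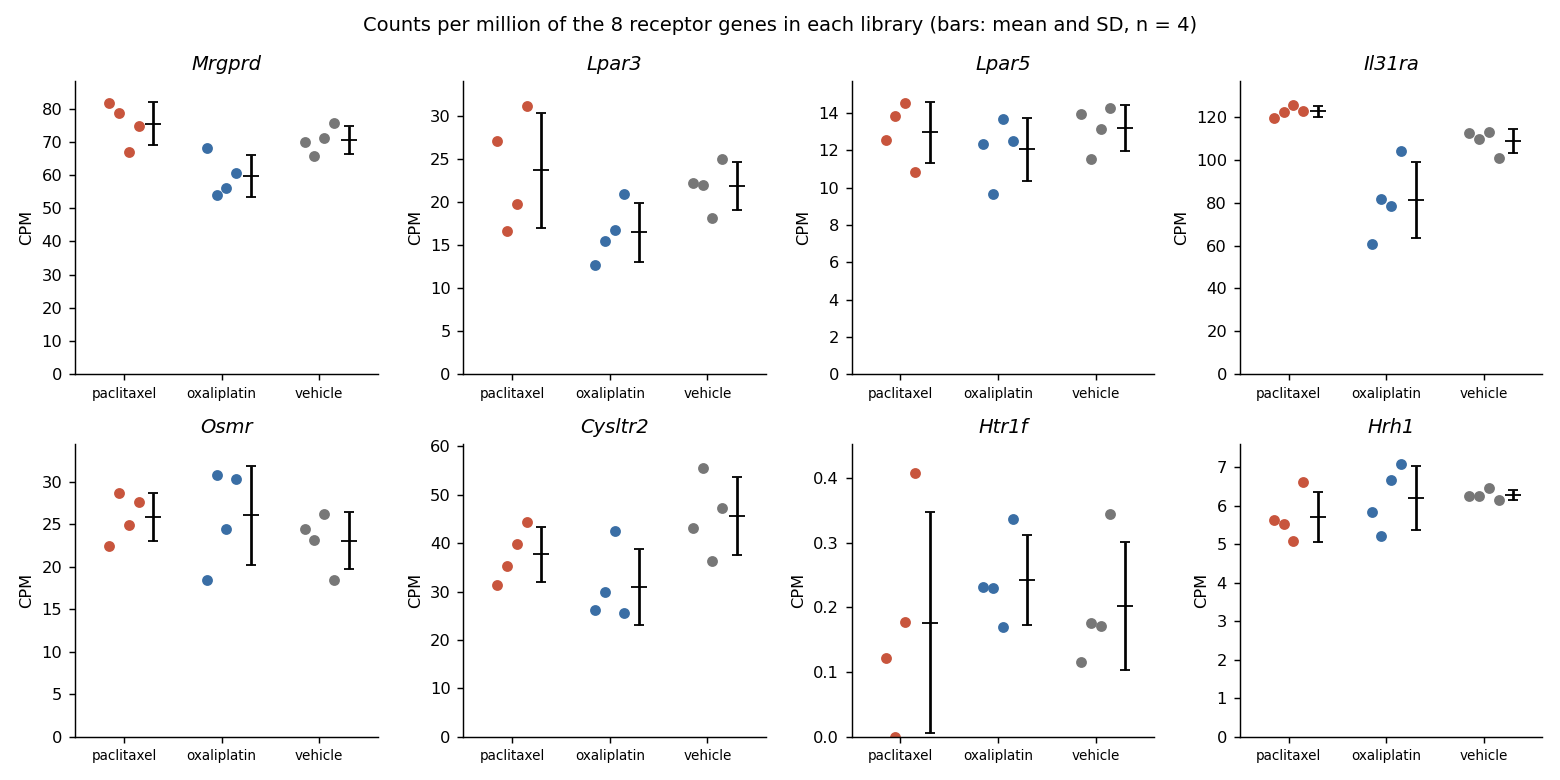
CPM (scaled counts, y axis) of each receptor gene in the 4 paclitaxel, 4 oxaliplatin and 4 vehicle libraries, 1 panel per gene, with the mean and SD of each group as bars beside the points. The 4 oxaliplatin libraries of Il31ra, at 60.8 to 104.3 CPM, sit below the 4 paclitaxel libraries, at 119.6 to 125.8 CPM.

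The smallest library held 17008728 estimated counts and the largest 17615736, and the filter left 15809 genes for testing. CPM is the count scaled to library size and composition. Neuron markers such as Tubb3, a neuronal tubulin (1827 ± 192 FPKM in paclitaxel ganglia, 1291 ± 166 FPKM in oxaliplatin ganglia and 1442 ± 64.4 FPKM in vehicle ganglia), were abundant. The number of genes called between paclitaxel and vehicle was 1631 without paclitaxel replicate 4, against 19 with it. With or without that library, 0 of the receptors were called between paclitaxel and vehicle.

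Between paclitaxel and vehicle, 0 of the 7 tested receptors passed edgeR's quasi-likelihood test at an adjusted p (Benjamini-Hochberg over all genes) under 0.05, where 0.120% of all genes did. None reached an unadjusted p under 0.05, which 17.1% of all genes did, and DESeq2 and limma voom also called 0. Of the 7, 4 lay higher and 3 lower, with a median log2 fold change of 0.10 against -0.01 over all genes tested. The adjusted p-values of the 7 ran between 0.390 and 0.913 in edgeR.

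Oxaliplatin ganglia had lower values than vehicle ganglia for 6 of the 7 receptors, but again 0 passed edgeR's test, where 1.76% of all genes did. An unadjusted p under 0.05 was reached by Il31ra, Cysltr2 and Mrgprd, all lower, where 17.2% of all genes reached it. The median log2 fold change was -0.24, against 0.01 over all genes, of which 48.3% were lower. In 0 of the 7 were the oxaliplatin and vehicle libraries separated without overlap, where 11.3% of all genes were. DESeq2 called Il31ra and Cysltr2 in this comparison and limma voom called Il31ra.

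Between oxaliplatin and paclitaxel, 2 of the 7 receptors passed edgeR's test and both were lower after oxaliplatin, where 4.71% of all genes were called lower and 11.3% in either direction. These were Il31ra and Mrgprd. The median log2 fold change of the 7 was -0.28, against 0.00 over all genes, with 5 lower and 2 higher. An unadjusted p under 0.05 was reached by 3 of the 7, the third being Lpar3, where 29.4% of all genes reached it. This comparison uses the same oxaliplatin libraries as the one with vehicle, so the directions in both are not separate observations.

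**Figure D2:**
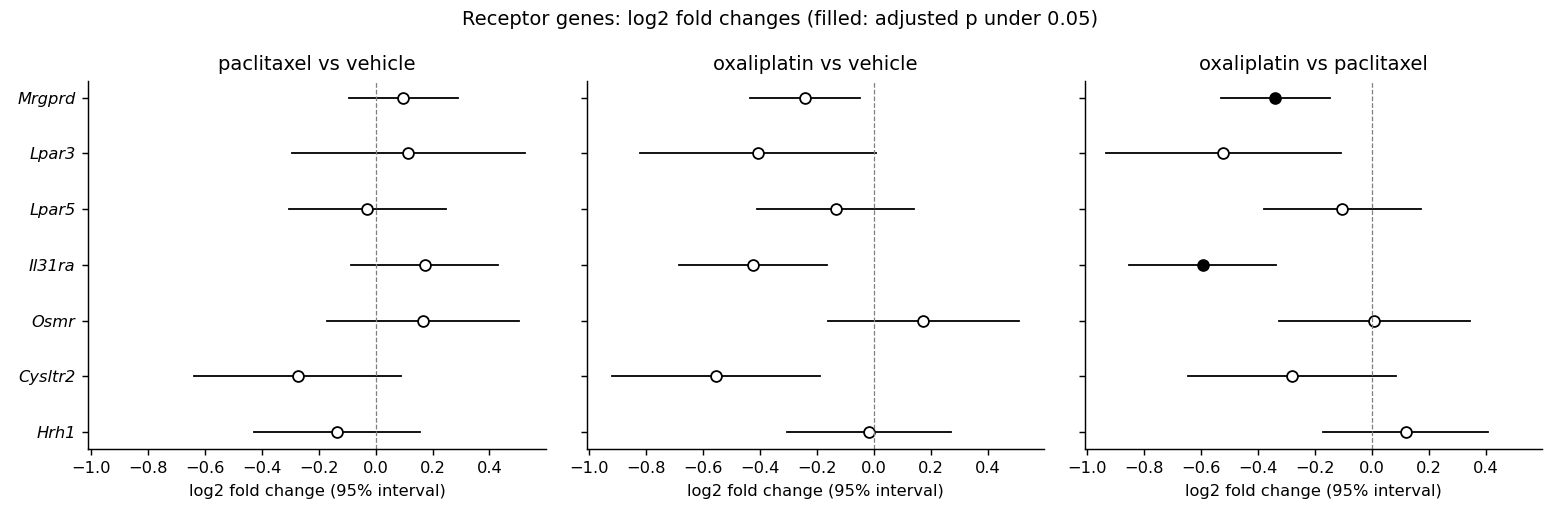
Log2 fold change (x axis) of the 7 tested receptor genes (rows) in paclitaxel against vehicle, oxaliplatin against vehicle and oxaliplatin against paclitaxel. Lines are 95% intervals derived from edgeR's test statistic. Filled points, for an adjusted p under 0.05, appear for Il31ra (-0.60) and Mrgprd (-0.34) in oxaliplatin against paclitaxel.

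The subunits of the interleukin-31 receptor differed in how they varied over the groups. Il31ra, which binds the cytokine, had 119.6, 122.6, 125.8 and 123.0 CPM in the paclitaxel libraries, 60.8, 81.5, 78.3 and 104.3 CPM in the oxaliplatin libraries, and 112.4, 109.6, 112.9 and 100.8 CPM in the vehicle libraries. All 4 oxaliplatin libraries lay below all 4 paclitaxel libraries, which 6.10% of all genes also did, and oxaliplatin replicate 4 alone reached into the vehicle range. Il31ra averaged 81.2 ± 17.8 CPM in oxaliplatin ganglia and 123 ± 2.55 CPM in paclitaxel ganglia (SD, n = 4 each), 33.8% lower, a log2 fold change of -0.60 ± 0.12 (SE, adjusted p = 0.0109, edgeR). Against vehicle ganglia, at 109 ± 5.59 CPM, the log2 fold change after oxaliplatin was -0.42 ± 0.12 (adjusted p = 0.0935, edgeR), which does not pass. Leaving out each library in turn called that value in 1 of 12 runs, without oxaliplatin replicate 4 (log2 fold change -0.58, adjusted p = 0.0200, edgeR). Without oxaliplatin replicate 1 it was -0.31 (adjusted p = 0.162, edgeR). The 4 paclitaxel libraries all lay above the 4 vehicle libraries, which 3.88% of all genes also did, yet the log2 fold change of 0.17 (95% interval -0.09 to 0.43) did not pass the test (adjusted p = 0.439, edgeR).

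Osmr, the subunit shared with oncostatin M, had 22.4, 28.7, 24.9 and 27.6 CPM in the paclitaxel libraries, 18.5, 30.8, 24.5 and 30.4 CPM in the oxaliplatin libraries, and 24.5, 23.2, 26.2 and 18.5 CPM in the vehicle libraries. Its groups overlapped in all 3 comparisons. The log2 fold change between oxaliplatin and paclitaxel was 0.01, with a 95% interval of -0.33 to 0.34 (adjusted p = 0.982, edgeR), and the sign of so small a value changed with the scaling. In each library the FPKM of Il31ra was several times that of Osmr. That ratio, chosen after the values were seen and given as a description, was 5.52 ± 0.357 in paclitaxel ganglia, 3.90 ± 0.630 in oxaliplatin ganglia and 5.36 ± 0.523 in vehicle ganglia (SD, n = 4 each). The oxaliplatin libraries, at 3.03 to 4.53, lay below the paclitaxel libraries, at 5.05 to 5.85, and the vehicle libraries, at 4.83 to 6.08. The length given for Osmr varied from 4674 to 6228 bases over the libraries, and the ratio of CPM, which uses no length, also separated the oxaliplatin libraries, at 2.64 to 3.43, from the paclitaxel libraries, at 4.27 to 5.33, and the vehicle libraries, at 4.31 to 5.46. In bulk ganglia, fewer cells of a type and less RNA per cell cannot be told apart. Bulk values also do not show which cells held the Osmr RNA. The ratio therefore need not describe the receptor of 1 cell type, which was not tested.

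**Figure D3:**
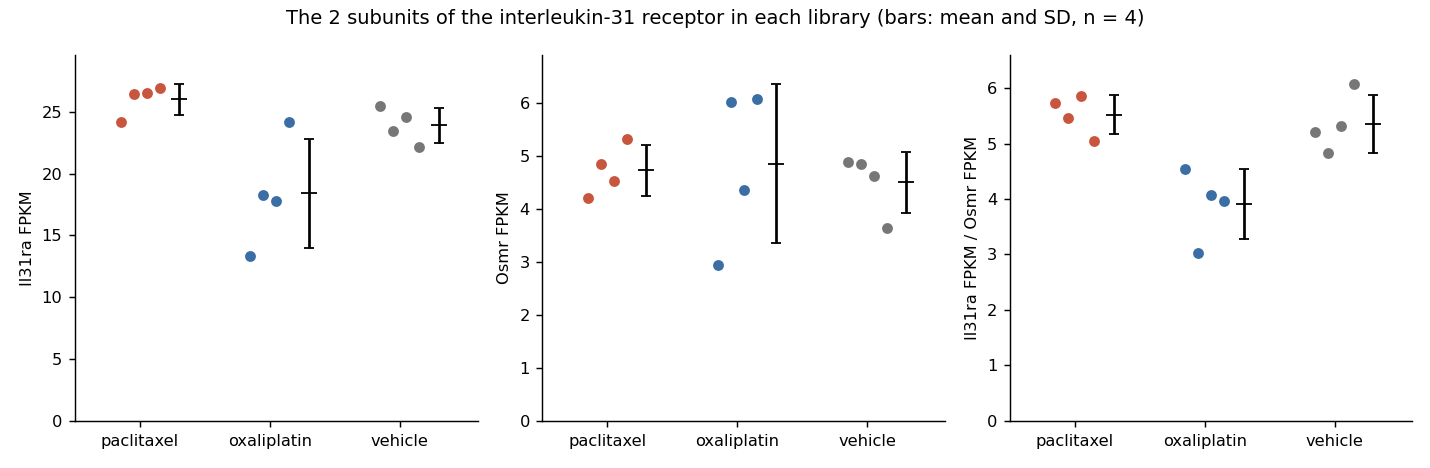
FPKM of Il31ra (left), FPKM of Osmr (middle) and the ratio of Il31ra to Osmr (right) in each of the 4 paclitaxel, 4 oxaliplatin and 4 vehicle libraries, with mean and SD as bars. The ratio averages 3.90 in oxaliplatin ganglia, below the averages of 5.52 in paclitaxel ganglia and 5.36 in vehicle ganglia, while the Osmr values of the 3 groups overlap.

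The stretches just before the annotated starts of these receptor genes are shown because Il31ra and Osmr encode partners in 1 receptor and Cysltr2 is carried by the same neurons in mice, while Il31ra and Osmr took different values here. They are the 250 bases upstream of each start in RefSeq's rat assembly GRCr8, which holds such a window for 7 of the 8 receptors, all but Mrgprd. The 3 genes lie on the minus strand, and each sequence runs 5′ to 3′ toward its gene, with CpG dinucleotides, the sites of DNA methylation, in capitals.
Il31ra, chr2:45917010-45917259: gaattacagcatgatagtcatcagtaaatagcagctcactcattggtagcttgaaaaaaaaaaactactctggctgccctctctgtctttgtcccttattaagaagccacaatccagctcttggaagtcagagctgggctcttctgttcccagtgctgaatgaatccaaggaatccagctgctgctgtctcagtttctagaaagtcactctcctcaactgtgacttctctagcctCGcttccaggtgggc
Osmr, chr2:57688562-57688811: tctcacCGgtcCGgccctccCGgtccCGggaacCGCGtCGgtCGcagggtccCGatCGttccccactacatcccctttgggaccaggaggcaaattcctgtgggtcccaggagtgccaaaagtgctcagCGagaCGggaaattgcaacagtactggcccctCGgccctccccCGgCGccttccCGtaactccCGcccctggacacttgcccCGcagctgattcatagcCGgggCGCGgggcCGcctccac
Cysltr2, chr15:54638315-54638564: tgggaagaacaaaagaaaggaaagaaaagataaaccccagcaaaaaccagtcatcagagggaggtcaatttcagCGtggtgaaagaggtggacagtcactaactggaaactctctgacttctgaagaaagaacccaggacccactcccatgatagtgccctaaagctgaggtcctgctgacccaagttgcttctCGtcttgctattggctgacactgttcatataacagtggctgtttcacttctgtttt
Il31ra had 1 CpG in this window and 46.4% G or C, Cysltr2 had 2 CpGs and 45.6%, and Osmr had 22 CpGs and 67.6%. Over all 33469 windows in the table the medians were 5 CpGs and 51.2%, and 86.3% of windows held fewer CpGs than that of Osmr. The histamine receptor gene Hrh1 also had 22 CpGs, Lpar3 had 9, Lpar5 had 5 and Htr1f had 0. Both strands were searched for TATAAA, the TATA box, which 12.9% of all windows held, for TGTGGT, the core letters bound by RUNX factors, held by 14.5%, and for TTCNNNGAA, letters bound by STAT factors, held by 7.67%. None of the 3 was found in the windows of Il31ra, Osmr, Cysltr2, Lpar3, Lpar5 or Hrh1, and Htr1f held TTCNNNGAA only. The annotated starts were not checked against where transcription begins. A window may therefore hold transcribed or coding bases, as the ends of the Lpar3 and Htr1f windows may. These matches describe letters in a window and say nothing of binding.

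Mrgprd, the marker of non-peptidergic nociceptors, had 81.7, 78.6, 66.9 and 75.0 CPM in the paclitaxel libraries, 68.2, 53.9, 56.2 and 60.6 CPM in the oxaliplatin libraries, and 70.1, 65.6, 71.1 and 75.7 CPM in the vehicle libraries. Oxaliplatin replicates 2, 3 and 4 lay below every paclitaxel and vehicle library, and replicate 1 lay among them. It averaged 59.7 ± 6.31 CPM in oxaliplatin ganglia and 75.6 ± 6.39 CPM in paclitaxel ganglia (SD, n = 4 each), 21.0% lower, a log2 fold change of -0.34 ± 0.09 (SE, adjusted p = 0.0294, edgeR). That call was lost without oxaliplatin replicate 2 (adjusted p = 0.0831) or 3 (0.0863), or without paclitaxel replicate 1 (0.0783) or 2 (0.0826), all in edgeR. Against vehicle ganglia, at 70.7 ± 4.14 CPM, the log2 fold change after oxaliplatin was -0.24 ± 0.09 (adjusted p = 0.185, edgeR) and did not pass.

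On the FPKM scale the difference in Mrgprd between the drugs was not called, with a log2 fold change of -0.09 (adjusted p = 0.642, limma on log2(FPKM + 1)). The FPKM values were 19.6, 22.2, 16.7 and 17.2 in the paclitaxel libraries, 20.3, 14.5, 17.2 and 19.1 in the oxaliplatin libraries, and 22.3, 20.2, 21.7 and 22.8 in the vehicle libraries. FPKM divides by a length, and the length that the authors gave for Mrgprd differed between libraries. It was 3877, 3437, 3847 and 4324 bases in the paclitaxel libraries, 3354, 3773, 3376 and 3258 bases in the oxaliplatin libraries, and 3167, 3188, 3270 and 3303 bases in the vehicle libraries. Every paclitaxel library had a longer Mrgprd than every vehicle library, which 2.18% of the 8946 genes with a varying length also did. The log2 difference in length between paclitaxel and vehicle was 0.26 ± 0.07 (SE, limma, unadjusted p = 0.00307, adjusted p = 0.640), so it did not pass over all genes, of which 0.0447% did. An exact permutation test of this single value gave p = 0.0286 (two-sided), the smallest that 4 against 4 libraries allow, and the comparison was chosen after the values were seen. Mrgprd has 2 listed transcripts, and the given length was constant over the libraries in all 9420 genes with 1 listed transcript, while it varied in 10026 of the 10732 genes with more.

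**Figure D4:**
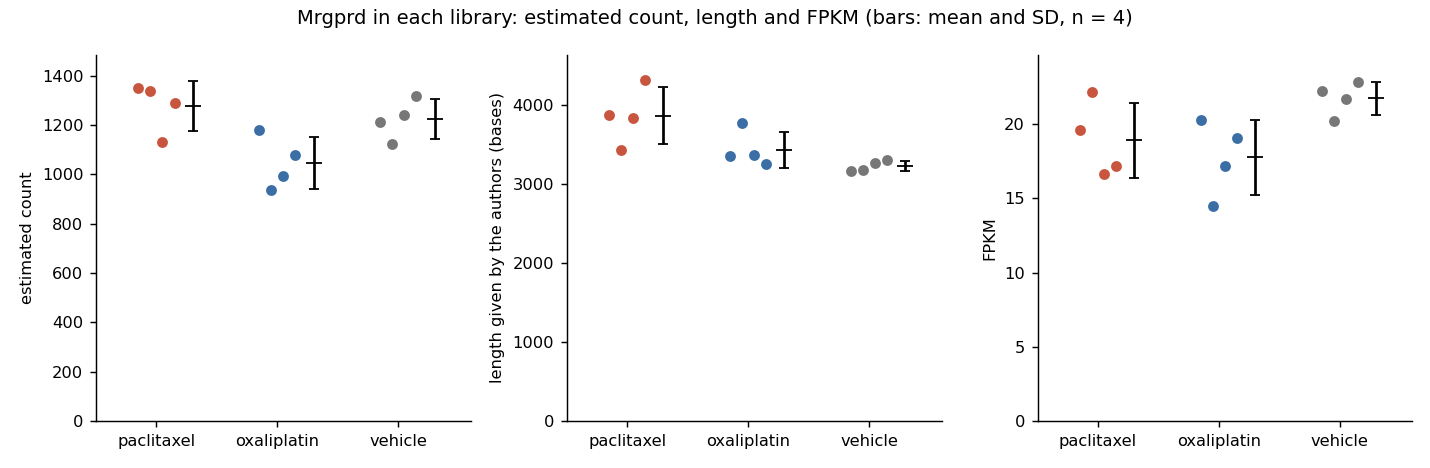
Estimated count (left), length in bases given by the authors (middle) and FPKM (right) of Mrgprd in each of the 4 paclitaxel, 4 oxaliplatin and 4 vehicle libraries, with mean and SD as bars. Counts are lowest in oxaliplatin ganglia (mean 1048), while lengths are greatest in paclitaxel ganglia (mean 3871 bases, against 3440 in oxaliplatin and 3232 in vehicle ganglia).

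The receptors of lysophosphatidic acid, a lipid mediator that evokes itch and pain, were not called by edgeR on all 12 libraries in any comparison. Lpar3 had 27.1, 16.6, 19.8 and 31.2 CPM in the paclitaxel libraries, 12.7, 15.5, 16.8 and 21.0 CPM in the oxaliplatin libraries, and 22.2, 22.0, 18.1 and 25.02 CPM in the vehicle libraries. The paclitaxel libraries of Lpar3 were spread widely and overlapped both other groups. Between oxaliplatin and paclitaxel its log2 fold change was -0.52 ± 0.19 (SE, adjusted p = 0.0918, edgeR). It was called in 2 of 21 alternatives, by DESeq2 (adjusted p = 0.0482) and by edgeR without oxaliplatin replicate 4 (adjusted p = 0.0426). Against vehicle the values were -0.41 after oxaliplatin (adjusted p = 0.299, edgeR) and 0.12 after paclitaxel (adjusted p = 0.752, edgeR). The paclitaxel value took the other sign without paclitaxel replicate 4.

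Lpar5, the other such receptor, lay between 9.65 and 14.6 CPM in all 12 libraries. It averaged 13.0 ± 1.62 CPM in paclitaxel ganglia, 12.1 ± 1.70 CPM in oxaliplatin ganglia and 13.2 ± 1.23 CPM in vehicle ganglia (SD, n = 4 each), and the groups overlapped. The 95% interval of its log2 fold change between oxaliplatin and paclitaxel ran from -0.38 to 0.17 (adjusted p = 0.627, edgeR).

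Cysltr2, the leukotriene receptor, had 31.3, 35.3, 39.8 and 44.3 CPM in the paclitaxel libraries, 26.1, 29.9, 42.4 and 25.6 CPM in the oxaliplatin libraries, and 43.1, 55.5, 36.3 and 47.3 CPM in the vehicle libraries. In 3 oxaliplatin libraries it lay below every other library, and oxaliplatin replicate 3 lay among the rest. Cysltr2 averaged 30.99 ± 7.86 CPM in oxaliplatin ganglia and 45.5 ± 8.01 CPM in vehicle ganglia (SD, n = 4 each), a log2 fold change of -0.56 ± 0.17 (adjusted p = 0.115, edgeR) that did not pass. It was called in 2 of 21 alternatives, without oxaliplatin replicate 3 (log2 fold change -0.75, adjusted p = 0.0407, edgeR) and by DESeq2 (adjusted p = 0.0356). On the FPKM scale it was -0.35 (adjusted p = 0.334, limma on log2(FPKM + 1)). After paclitaxel the log2 fold change from vehicle was -0.27, with a 95% interval of -0.64 to 0.09 (adjusted p = 0.390, edgeR).

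Hrh1, the histamine receptor, was low in every group, at 5.71 ± 0.648 CPM in paclitaxel ganglia, 6.20 ± 0.831 CPM in oxaliplatin ganglia and 6.28 ± 0.136 CPM in vehicle ganglia (SD, n = 4 each). Its vehicle libraries held 107 to 113 estimated counts, and its groups overlapped in all 3 comparisons. The length given for Hrh1 was 2490 to 2816 bases in oxaliplatin libraries and 2244 to 2444 bases in vehicle libraries, without overlap, which 1.54% of genes also showed (limma, adjusted p = 0.996). The 95% intervals of its log2 fold change were -0.43 to 0.15 for paclitaxel against vehicle, -0.31 to 0.27 for oxaliplatin against vehicle and -0.17 to 0.41 for oxaliplatin against paclitaxel.

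Of 7 further genes of the somatostatin and NPPB class, which carries Il31ra in mice, edgeR called 3 lower between oxaliplatin and paclitaxel, where 4.71% of all genes were called lower. Of the 7, 6 had a negative log2 fold change in that comparison. Sst, the peptide somatostatin, averaged 74.4 ± 12.6 CPM in oxaliplatin ganglia and 143 ± 38.5 CPM in paclitaxel ganglia (log2 fold change -0.94 ± 0.16, adjusted p = 0.00627, edgeR). The Sst values of the 4 oxaliplatin libraries, at 59.6 to 89.4 CPM, all lay below those of the paclitaxel libraries, at 112.2 to 199.2 CPM, and of the vehicle libraries, at 106.9 to 127.0 CPM. Nts, the peptide neurotensin, was near the limit of detection, at 0.271 ± 0.101 CPM in oxaliplatin ganglia and 0.769 ± 0.295 CPM in paclitaxel ganglia (-1.48 ± 0.42, adjusted p = 0.0368, edgeR). Jak1, a kinase that cytokine receptors use and that many cell types express, fell by 0.27 on the log2 scale (adjusted p = 0.0494, edgeR), and its counts were not whole in 12 of 12 libraries. Nppb itself was low, with overlapping groups, and edgeR did not call it. It averaged 1.37 ± 0.944 CPM in oxaliplatin, 1.85 ± 0.309 CPM in paclitaxel and 1.69 ± 0.965 CPM in vehicle ganglia. Ada went the other way, at 11.4 FPKM on average in oxaliplatin, 9.30 FPKM in paclitaxel and 9.08 FPKM in vehicle ganglia. Against vehicle, 6 of the 7 genes were lower after oxaliplatin and edgeR called 0, where DESeq2 called 1 and voom 1 and 2 had an unadjusted p under 0.05, with Sst at -0.64 ± 0.16 (adjusted p = 0.0660, edgeR). The median log2 fold change of the 7 genes was -0.33 between oxaliplatin and paclitaxel and -0.31 between oxaliplatin and vehicle.

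Among 16 other markers of non-peptidergic nociceptors, 12 were lower after oxaliplatin than after vehicle and 2 of them were called, where 0.708% of all genes were called lower. P2rx3, an ATP-gated channel, averaged 651 ± 30.0 CPM in oxaliplatin ganglia and 818 ± 51.5 CPM in vehicle ganglia (log2 fold change -0.33 ± 0.07, adjusted p = 0.0413, edgeR). Tmem45b fell by 0.33 on the log2 scale (adjusted p = 0.0445, edgeR). Between oxaliplatin and paclitaxel 4 of the 16 were called lower, namely P2rx3, Grik1, Ret and Plxnc1, and 2 higher, where 4.71% of all genes were called lower and 6.60% higher. The higher ones were Agtr1a, an angiotensin receptor, and Ptpn6, a phosphatase that blood cells also express strongly. After paclitaxel 8 of the 16 were higher and 8 lower than after vehicle, and edgeR called 0. There 6 had an unadjusted p under 0.05, and DESeq2 called 2 and voom 4. Oxaliplatin against vehicle had a median log2 fold change of -0.16 over these 16 genes. General neuron markers were lower there in 15 of 16 genes, with a median of -0.17 and 0 called by edgeR.

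Markers of another neuron class also had lower values after oxaliplatin. Of 12 markers of large myelinated neurons, which sense touch and body position, 10 lay below vehicle, and edgeR called Nefl, Scn1a and Nefm lower, where 0.708% of all genes were called lower, while DESeq2 and voom each called 4 lower. Nefl, the light neurofilament subunit, averaged 2802 ± 381 CPM in oxaliplatin ganglia and 4463 ± 370 CPM in vehicle ganglia (log2 fold change -0.67 ± 0.14, adjusted p = 0.0359, edgeR). The mean log2 CPM of the 12 genes minus its vehicle mean lay at -0.49 to -0.17 in oxaliplatin libraries, -0.26 to 0.27 in paclitaxel libraries and -0.12 to 0.07 in vehicle libraries. The same measure over the 7 genes of the somatostatin and NPPB class lay at -0.51 to -0.18 in oxaliplatin libraries, -0.25 to 0.25 in paclitaxel libraries and -0.15 to 0.21 in vehicle libraries. These lists were not tested against each other. Against paclitaxel, 4 large-neuron markers were called lower after oxaliplatin in edgeR, namely Nefl, Nefm, Nefh and Scn1a, and Ntrk3 was called higher. Over all genes, 4.71% were called lower and 6.60% higher in that comparison.

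Of 10 peptidergic nociceptor markers, 9 were lower between oxaliplatin and paclitaxel. There edgeR called Gal and Calca, the genes of the peptides galanin and CGRP, where 4.71% of all genes were called lower. Against vehicle, 7 of the 10 were lower after oxaliplatin and 7 were higher after paclitaxel. EdgeR called 0 and 1 of them, where 1.76% and 0.120% of all genes were called. Their mean log2 CPM minus its vehicle mean lay at 0.23 to 0.40 in paclitaxel libraries. It lay at -0.20 to 0.03 in oxaliplatin libraries and -0.14 to 0.06 in vehicle libraries. That mean includes Gal, which averaged 46.1 FPKM in paclitaxel ganglia and 12.5 FPKM in vehicle ganglia. The median log2 fold change of the 10 genes in paclitaxel against vehicle was only 0.06. Of 4 tested markers of C-fibre touch neurons 3 were lower between the drugs, and edgeR called Fam19a4, against the same 4.71%. Against vehicle 3 were also lower after oxaliplatin, with 0 called. Of 11 tested axon injury genes edgeR called Ecel1, Gal and Atf3 higher after paclitaxel than after vehicle, where 0.120% of all genes were called. After oxaliplatin edgeR called Ecel1 and Csf1 of these higher and Gadd45a lower than after vehicle. In that comparison 1.76% of all genes were called in either direction and 0.708% were called lower. In oxaliplatin against paclitaxel 7 of the 11 were called lower, led by Gal (log2 fold change -2.28 ± 0.23, adjusted p = 0.000298, edgeR), Gadd45a, Atf3 and Ecel1, and Csf1 was called higher. Over all genes, 4.71% were called lower and 6.60% higher in that comparison.

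Markers of all neurons and of other cell types moved with the same contrast. Of 16 general neuron markers, 16 were lower between oxaliplatin and paclitaxel and 8 were called, where 4.71% of all genes were called lower. Their median log2 fold change was -0.40. Against vehicle, 15 of the 16 were lower after oxaliplatin (median -0.17) and 15 were higher after paclitaxel (median 0.27). EdgeR called 0 in both, where 1.76% and 0.120% of all genes were called. DESeq2 called 1 lower after oxaliplatin and 2 higher after paclitaxel, and voom called 0 and 10. Between oxaliplatin and paclitaxel, the share called higher among all genes, against which the next lists stand, was 6.60%. The neuron score, the mean log2 CPM of the 16 genes minus its vehicle mean, lay at -0.25 to -0.03 in the oxaliplatin libraries, 0.08 to 0.34 in the paclitaxel libraries and -0.07 to 0.08 in the vehicle libraries. Fibroblast and perineurial markers were higher in 12 of 12 genes, 7 called, with scores of 0.13 to 0.42 in oxaliplatin, -0.67 to -0.18 in paclitaxel and -0.18 to 0.30 in vehicle libraries. Endothelial markers were higher in 10 of 10, 5 called, and scored 0.29 to 0.46 in oxaliplatin, -0.30 to -0.01 in paclitaxel and -0.31 to 0.34 in vehicle libraries. Erythroid markers were higher in 10 of 10, 9 called, and scored 0.76 to 2.11 in oxaliplatin, -2.03 to -0.29 in paclitaxel and -0.79 to 0.28 in vehicle libraries. Adipocyte markers were higher in 8 of 8 tested, all called, and scored 0.96 to 2.62 in oxaliplatin, -1.55 to 0.22 in paclitaxel and -0.41 to 0.59 in vehicle libraries. Macrophage markers were higher in 15 of 15, 5 called, and scored -0.34 to 0.05 in oxaliplatin, -1.34 to -0.55 in paclitaxel and -0.34 to 0.24 in vehicle libraries. No marker of these 6 lists was at 0 in all libraries. Of the remaining lists in the same comparison, edgeR called 5 of 6 tested B cell markers, 3 of 8 pericyte and smooth muscle markers and 2 of 10 satellite glia markers, all higher. It called 0 of 8 neutrophil, 6 mast cell, 10 Schwann cell and 3 T and NK cell markers tested, of which 2, 2, 1 and 0 had an unadjusted p under 0.05. DESeq2 called 2 of these neutrophil markers, and voom 1 mast cell and 1 Schwann cell marker. The part of tissue composition in the receptor differences was not tested.

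Values were next set against the neuron markers of the same library, a scale chosen after the values were seen and given as a description. It subtracts the neuron score, which averaged -0.15 in oxaliplatin libraries and 0.22 in paclitaxel libraries. The mean difference between the drugs therefore moves up by the same amount for every gene. The smaller differences of Il31ra, Mrgprd and Lpar3 on this scale follow from that shift and are no separate result. Il31ra, on this log2 scale relative to its vehicle mean, averaged -0.29 (lowest -0.72, highest -0.04) in oxaliplatin libraries and -0.04 (lowest -0.21, highest 0.10) in paclitaxel libraries, so the groups overlapped. Mrgprd averaged -0.09 in oxaliplatin libraries and -0.12 in paclitaxel libraries, which is not lower. Lpar3 averaged -0.27 in oxaliplatin libraries and -0.14 in paclitaxel libraries, with overlap. Cysltr2 averaged -0.41 in oxaliplatin libraries and -0.48 in paclitaxel libraries, with vehicle libraries between -0.34 and 0.34. Osmr averaged 0.31 in oxaliplatin libraries and -0.04 in paclitaxel libraries, with overlap. Lpar5, at 0.01 and -0.25, and Hrh1, at 0.13 and -0.36, also averaged higher in oxaliplatin than in paclitaxel libraries on this scale, each with overlap.

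**Figure D5:**
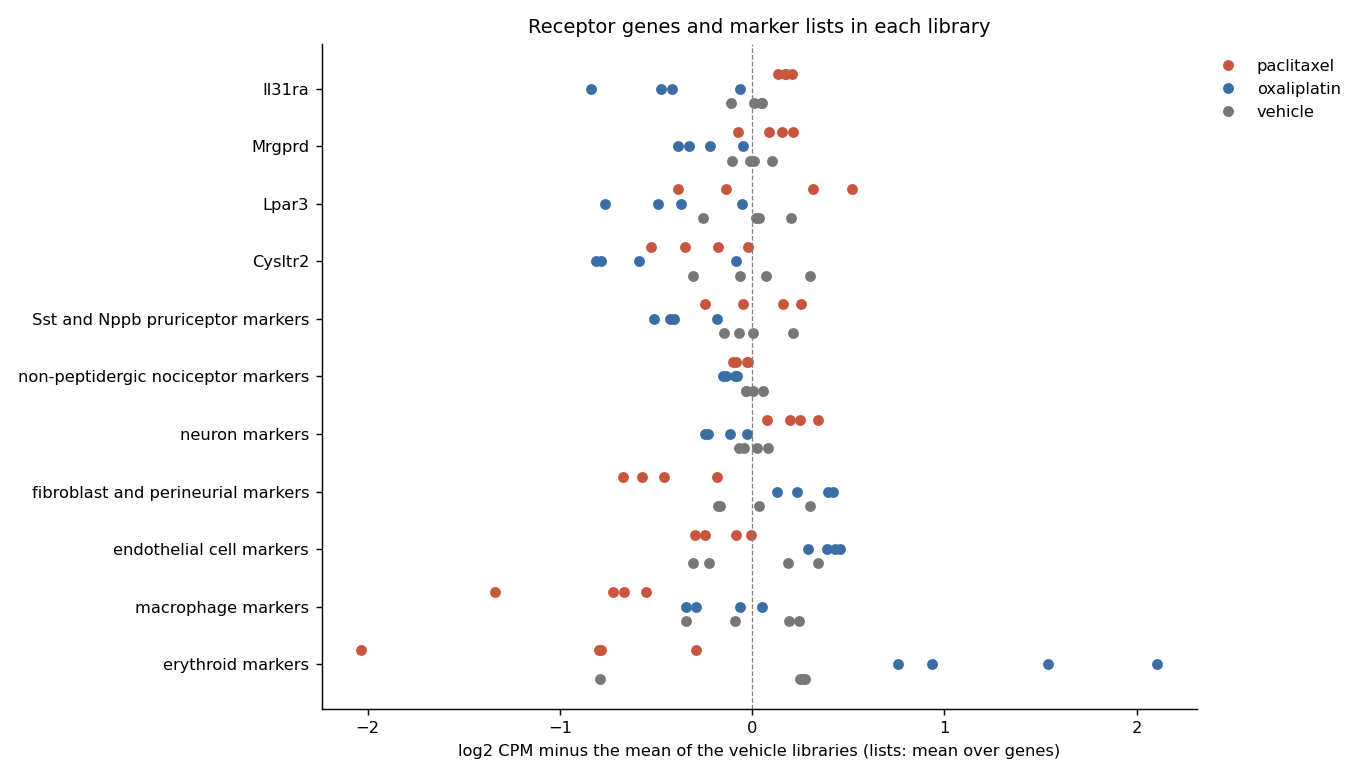
Log2 CPM minus the vehicle mean (x axis) in each library for 4 receptor genes and 7 marker lists (rows), with points for paclitaxel, oxaliplatin and vehicle libraries, a list being shown as the mean over its genes without the 8 receptors. Neuron markers lie lower in oxaliplatin libraries (-0.25 to -0.03) than in paclitaxel libraries (0.08 to 0.34), and erythroid markers lie higher in oxaliplatin libraries (0.76 to 2.11) than in paclitaxel libraries (-2.03 to -0.29).

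The list of ligand genes held the cytokines and enzymes that form ligands of these receptors and also related cytokines, such as Lif, that act through other receptors. Of its 13 tested genes, edgeR called 1, between oxaliplatin and paclitaxel, where 11.3% of all genes were called, and 0 against vehicle, where DESeq2 called 1 after paclitaxel and 0 after oxaliplatin and voom 2 and 0. An unadjusted p under 0.05 was reached by 6 after paclitaxel and 0 after oxaliplatin against vehicle. Lif, a cytokine of the interleukin-6 family whose own receptor is LIFR and none of the 8, was at 0.913 ± 0.374 CPM in oxaliplatin ganglia and 0.279 ± 0.126 CPM in paclitaxel ganglia (log2 fold change 1.68 ± 0.47, adjusted p = 0.0361, edgeR). These values are near the limit of detection. On the FPKM scale the means of Lif were closer, at 0.44 and 0.245, and its libraries overlapped, at 0.30 to 0.70 and 0.09 to 0.50. Il31 itself was at or below 0.121 CPM in every library, and Osm, the gene of oncostatin M, averaged 0.723 ± 0.121 CPM in paclitaxel ganglia, 1.03 ± 0.242 CPM in oxaliplatin ganglia and 0.982 ± 0.255 CPM in vehicle ganglia. Enpp2, which encodes autotaxin, the enzyme that makes lysophosphatidic acid, averaged 23.3 ± 1.69 CPM in paclitaxel ganglia and 30.4 ± 3.58 CPM in vehicle ganglia (-0.39 ± 0.10, adjusted p = 0.200, edgeR). That difference did not pass the test.

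Genes that relay signals from the receptors numbered 24, and edgeR called 0 against vehicle after either drug, as did DESeq2, while voom called 2 after paclitaxel and 0 after oxaliplatin. At an unadjusted p under 0.05 stood Stat3 and Arrb1 after paclitaxel and Stat5a after oxaliplatin. Between oxaliplatin and paclitaxel 3 were lower, namely Jak1, Stat3 and Cish, and 1 was higher by edgeR's test, where 4.71% of all genes were called lower and 6.60% higher. Stat3, a transcription factor downstream of the interleukin-31 receptor, averaged 308 ± 25.4 CPM in oxaliplatin ganglia and 373 ± 31.5 CPM in paclitaxel ganglia (log2 fold change -0.27 ± 0.08, adjusted p = 0.0454, edgeR). Cish, a feedback inhibitor that STAT factors induce, fell by 0.66 on the log2 scale (adjusted p = 0.0481, edgeR). Plcb4, a phospholipase, rose by 0.38 (adjusted p = 0.0466, edgeR), with counts that were not whole in 12 of 12 libraries. The median of the 24 genes was -0.01, close to the 0.00 of all genes.

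Of 26 other tested itch receptors, peptides and channels, edgeR called 0 after paclitaxel against vehicle, where DESeq2 called 2 and voom 4. After oxaliplatin against vehicle edgeR called 2, where 1.76% of all genes were called, while DESeq2 called 2 higher and 4 lower and voom 1 higher and 2 lower. At an unadjusted p under 0.05 after paclitaxel stood 6 genes, led by Bdkrb2 (log2 fold change 0.83 ± 0.17, adjusted p = 0.0975, edgeR) and Tlr7 (-1.22 ± 0.27, adjusted p = 0.137, edgeR). Npr1, the receptor of natriuretic peptides, averaged 11.1 ± 1.05 CPM in oxaliplatin ganglia and 6.43 ± 1.74 CPM in vehicle ganglia (0.79 ± 0.18, adjusted p = 0.0396, edgeR). Il7r, a cytokine receptor chain also found on T cells, averaged 30.5 ± 4.56 CPM in oxaliplatin ganglia and 45.3 ± 3.71 CPM in vehicle ganglia (-0.57 ± 0.12, adjusted p = 0.0293, edgeR). Between oxaliplatin and paclitaxel Sst, Nts, F2r and Bdkrb2 were called lower and Npr1 higher, where 4.71% of all genes were called lower and 6.60% higher. Of these, Sst and Nts are the same calls as in the somatostatin and NPPB list above. F2r is a thrombin receptor and Bdkrb2 a bradykinin receptor.

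The close relatives of the 8 receptors gave 3 calls among 16 tested genes, all between oxaliplatin and paclitaxel in edgeR, where 11.3% of all genes were called. Against vehicle, edgeR and DESeq2 called 0 and voom called 3 after paclitaxel and 0 after oxaliplatin, with 4 genes at an unadjusted p under 0.05 after paclitaxel and 3 after oxaliplatin. Mrgpre, of the same family as Mrgprd, averaged 30.0 ± 2.09 CPM in oxaliplatin ganglia and 37.6 ± 2.69 CPM in paclitaxel ganglia (log2 fold change -0.33 ± 0.09, adjusted p = 0.0294, edgeR), with counts that were not whole in 12 of 12 libraries. Mrgprf, also of that family, averaged 14.96 ± 1.01 CPM in oxaliplatin ganglia and 9.76 ± 1.48 CPM in paclitaxel ganglia (0.61 ± 0.18, adjusted p = 0.0403, edgeR). Il6r, the interleukin-6 receptor, rose by 0.44 on the log2 scale (adjusted p = 0.0429, edgeR).

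Across the 12 libraries the receptors did not vary as 1 block. Pearson's r between pairs of the 7, on log2 CPM, was highest for Lpar3 and Il31ra (0.70) and lowest for Lpar5 and Osmr (-0.38), and for Il31ra and Osmr it was 0.35. These values include differences between the groups, shared library scaling and tissue composition, and are given as descriptions. The genes most like each receptor over the 12 libraries, among 12839 genes, were Klhl33 (r = 0.96) and Hecw1 (0.95) for Il31ra, Hbs1l (0.92) and Cpt2 (0.92) for Mrgprd, and Cdc37l1 (0.92) and Paip2 (0.92) for Cysltr2. For Lpar3 they were Rnf20 (0.86) and Kcna5 (0.86), for Osmr Kcnk2 (0.85) and Il1r1 (0.85), for Hrh1 Cdkal1 (0.85) and Zcchc9 (0.83), and for Lpar5 Pxk (0.84) and Ube2b (0.84). The median best r of all genes was 0.94, so only Il31ra had a best match above that median.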

How the data were processed

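Per the labels' protocols, ganglia were frozen on dry ice, Trizol was used for extraction, and a BGISEQ-500 kit for the libraries; Illumina is mentioned too, and strand is not stated. CASAVA 1.4 and Bowtie2 appear in the submitters' processing notes. Which tool quantified the genes, and on which genome build, is not given in the sources used here. Per the file headers, the authors' deposited tables give for each gene an expected count, which need not be whole, an FPKM value and a length. A gene is listed from an FPKM of 0.01 upward, and an absent gene was taken as 0.

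Expected counts were rounded and fitted in edgeR 4.0.16 (R 4.3.3), using its default filter, TMM scaling and robust quasi-likelihood estimates for 3 groups and 12 libraries (9 residual degrees of freedom). Tests were two-sided. Log2 CPM used a prior count of 2. EdgeR's test gives no standard error, so the SE of each log2 fold change was derived from its F statistic. Intervals are at 95% and were built from that SE with a t distribution. Precision is limited by 4 libraries per group, with a common coefficient of variation of 0.159. Lengths were compared with limma 3.58.1 on the log2 scale in genes whose length varied. Alternatives were DESeq2 1.42.0, its size factors in edgeR, limma voom with quality weights, limma on log2(FPKM + 1) and log2(FPKM + 0.1), no filter, only the libraries of the groups compared, a replicate block and leaving out each library. Libraries of a group differed by more than sampling noise (chi-square per gene 8.07 to 44.9, over genes with a summed count of at least 50).

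The receptors and the 23 gene lists were chosen with earlier results of these data known. All 8 receptors are named. The rule for named genes was that each list gives its called genes (up to 4, by p), or the 2 with the smallest p where none was called. It was followed in part, since the lists of all neurons and of cell types other than neurons are given by counts and scores without gene names. Il31, Osm, Nppb, Ada, and between the drugs Bdkrb2, Ret and Plxnc1 were named outside that rule, after their values were seen. Lists leave out the 8 receptors. In counts simulated from the real means, edgeR called 81% of genes changed 2-fold in the oxaliplatin against paclitaxel comparison and 94% of those changed 4-fold, on 15693 genes. There 7.41% of its calls were false, above the 5% aimed at. The false share was 6.88% for paclitaxel against vehicle and 3.65% for oxaliplatin against vehicle. Smaller changes, such as those of the receptors here, were not simulated, so these rates do not describe them. Sequences were taken from RefSeq (GRCr8) and no coordinates of the files were used.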

Additional observations from a re-analysis of the deposited data

Results flagged for a closer look

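The difference between the drugs in Il31ra, a log2 fold change of -0.60 in oxaliplatin against paclitaxel, was picked out because the effects of the 2 drugs, each taken against the same vehicle libraries, differed by a direct test (edgeR, adjusted p = 0.0109). Oxaliplatin was below paclitaxel in 4 of 4 libraries. The same test picked out Mrgprd at -0.34 (edgeR, adjusted p = 0.0294), where 3 of 4 oxaliplatin libraries lay below every paclitaxel library. The length the authors gave for Il31ra in oxaliplatin replicate 4, 4421 bases, lay far from the 4516 to 4534 bases of the other oxaliplatin libraries. It was the only outlying library in 45 sets of 4 values, and chance flags about 1 in 20 sets.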

How the results depend on the processing

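Il31ra was called between oxaliplatin and paclitaxel in all 21 alternatives (adjusted p 8.87e-05 to 0.0389; log2 fold change -0.74 to -0.48), and Mrgprd in 13 of 21. The number of receptors called there was 1 (Il31ra) with the 3 FPKM settings and with only the libraries of the 2 groups, and 1 to 3 on leaving out a library. Between oxaliplatin and vehicle it was 2 with DESeq2 and 1 with voom, and 0 to 1 on leaving out a library; between paclitaxel and vehicle it was 0 throughout. Genes called between paclitaxel and vehicle numbered 238 with DESeq2, 2017 with voom and 10 to 1631 on leaving out a library, the highest without paclitaxel replicate 4. Between oxaliplatin and vehicle they numbered 904 with DESeq2, 599 with voom, 161 with only 2 groups and 49 to 357 on leaving out a library, the lowest without vehicle replicate 4. Between oxaliplatin and paclitaxel they numbered 2782 with DESeq2, 4726 with voom, 1016 with only 2 groups and 571 to 3463 on leaving out a library, the extremes being without oxaliplatin replicate 3 and without paclitaxel replicate 4. The share of these calls that were higher was 58.4%, against 85.1% on log2(FPKM + 1), 48.1% with DESeq2 and 74.5% with only 2 groups; between oxaliplatin and vehicle it was 59.7%, against 78.1% on log2(FPKM + 1) and 48.2% with DESeq2. No scaling moved the median of all genes by over 0.1 on the log2 scale.

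A replicate block gave 72 called genes between oxaliplatin and vehicle and 986 between oxaliplatin and paclitaxel, against 278 and 1788 without it, and the same receptors were called. Correlations of same-numbered libraries ran from -0.331 to 0.246, and those of differently numbered libraries from -0.336 to 0.322. The labels state no pairing, and with 4 libraries per group these values cannot exclude one.

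Of 441 alternative values of single receptors, 404 kept direction and side of the threshold, 7 gained a call, 8 lost one and 22 took the other sign, none of them called. Mrgprd in paclitaxel against vehicle was -0.20 on log2(FPKM + 1), with or without the filter, and -0.21 on log2(FPKM + 0.1). Lpar3 there was -0.14 with voom and -0.047 to 0.25 on leaving out a library, lowest without paclitaxel replicate 4, and Lpar5 was 0.032 with voom and -0.090 to 0.047 on leaving out a library. Hrh1 in oxaliplatin against vehicle was -0.096 to 0.056 on leaving out a library. Osmr in oxaliplatin against paclitaxel was -0.0082 with DESeq2 size factors, -0.010 with DESeq2, -0.0058 with voom, -0.014 on log2(FPKM + 0.1), -0.0045 on log2(FPKM + 1) with or without the filter, -0.0023 with no filter on counts or a replicate block, and -0.083 to 0.14 on leaving out a library. The cause was not tested. Htr1f, at 0 to 7 counts, is limited by depth.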
